A study of Mus musculus with 74 samples.

Results

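Gm14443 and Gm14295 are KRAB zinc finger proteins (KRAB-ZFPs) of the mouse, and their binding was measured by ChIP-seq: an antibody to a protein tag pulls down the DNA the protein sits on, and that DNA is sequenced. Their peaks were taken by name from the deposited peak table, which gave 480 peaks for Gm14443 and 256 for Gm14295, 736 in all out of 53255 peaks under 68 names. The series holds 74 samples, and 67 of its KRAB-ZFPs could be matched to peaks by name. Both proteins were overexpressed with a C-terminal 3XHA tag in B6 ES cells, embryonic stem cells of the B6 strain, precipitated with the HA antibody clone 16B12 and called against the same input, TI_443. Per the methods of the study, the tagged genes were delivered by stably integrating vectors and drug-resistant clones were pooled, so a sample is a mixture of clones that carry added copies beside their own genes. They are compared with the 7 other ES samples, which carried the same cells, tag and antibody: Zfp931, called against the same input, and Gm14399, Gm14401, Gm14419, Gm14420, Gm4631 and Gm8898, called against the input TI_399. There was 1 sample per protein and therefore no replicate error for any value, and neither the cell type nor the amount of tagged protein can be checked in a table of peaks.

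In a KRAB-ZFP the row of zinc fingers sets which DNA is recognised, since the bases touched depend on a few residues in every finger. Repression comes from the KRAB domain at the other end, by way of KAP1 (Trim28) and the H3K9 methylation that follows, and the silencing of retrotransposons in ES cells is its best known use. The genes of both proteins lie in a cluster of KRAB-ZFP genes on chromosome 2, Gm14443 at chr2:174991756-175001372 and Gm14295 at chr2:176583317-176595928 (build mm9, gencode vM1). The other 7 ES proteins are encoded in the same cluster.

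A 20-base sequence recurred under Gm14443 peaks, and it is shown first in the repeated element that held most of their multi-copy peaks. The following 100 bases are from an intergenic copy at chr6:124925749-124925848 (mm9, minus strand, read 5′ to 3′), and the capitals mark the 20-base site.
element site: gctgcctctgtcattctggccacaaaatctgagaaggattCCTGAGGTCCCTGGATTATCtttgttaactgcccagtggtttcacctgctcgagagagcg
The same 20 positions differed between copies of the element in the mouse genome, and the commonest forms are listed because the share of copies with a peak is given for each below. Capitals mark bases that differ from the first form, and substitutions are given as the base of the first form, the position counted from 1 at the 5′ end of the site, and the base of the other form.
reference form: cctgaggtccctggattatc
form with C20T: cctgaggtccctggattatT
form with T16C and T17G: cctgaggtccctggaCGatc
form with C10T, T16C and T17G: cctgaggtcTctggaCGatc
form with T16C, T17A, T19C and C20T: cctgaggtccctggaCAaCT
Sites were also found in some strong peaks of Gm14443 in sequence that occurs only once in the genome, though not in the strongest peak. The sites below are those among the 10 such peaks of highest fold that matched the motif described further on; those on chromosomes 7 and 9 were among the peaks it was derived from. They are given with the motif's positions 7 to 20 in capitals and the strand on which the site reads.
chr12:17555066-17555085, plus strand, intron of Odc1: ctgagcGGATGAGCATTATA
chr6:38634145-38634164, plus strand, intergenic: ttccagGCATCAGCATAATC
chr7:132588876-132588895, minus strand, intron of Jmjd5: ctggatGCCTTAGCATGAAC
chr8:12490267-12490286, minus strand, intergenic: ccaggtGGCTCAGCATTATC
chr10:82521947-82521966, plus strand, intron of Chst11: ttggaaGCCTCAGCATCATC
chr9:37319180-37319199, minus strand, intron of BC024479: cccatgGCCTGAGCATAATC
For Gm14295, no sequence shared by many peaks was found, and the 200 bases of its single strongest peak are given, at chr2:71490365-71490564 (mm9, plus strand, intergenic).
strongest Gm14295 peak: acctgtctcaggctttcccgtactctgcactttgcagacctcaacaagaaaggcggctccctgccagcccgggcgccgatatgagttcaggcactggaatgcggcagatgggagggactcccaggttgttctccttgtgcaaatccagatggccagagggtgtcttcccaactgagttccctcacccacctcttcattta

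The 2 proteins differed in the strength of their peaks. The deposited fold is the enrichment of ChIP reads over the input around the peak, and a tag is a read counted in the peak. Gm14443 had a median fold of 12.02 with quartiles of 10.42 and 14.88 and a highest value of 60.42. Gm14295 had a median fold of 10.67 with quartiles of 9.62 and 11.73 and a highest value of 41.51. The middle ranges of the folds therefore overlapped, and the proteins were set apart by the upper end: 51 Gm14443 peaks had a fold over 20, whereas 1 Gm14295 peak did. The median number of tags per peak was 16 for Gm14443 and 10 for Gm14295, and the smallest was 9 for both. Called peaks of Gm14443 were 382 bp wide at the median and those of Gm14295 277 bp.

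The authors' score, 10 times the negative log10 of the p-value, was 100 or more in 95 Gm14443 peaks and in 3 Gm14295 peaks. The deposited false discovery rate is the percentage of peaks of at least that score expected when ChIP and input are swapped. It was 5% or less in 193 Gm14443 peaks and in 0 Gm14295 peaks, whose lowest value was 10.14% and whose median was 12.99%. The median of Gm14443 was 7.37%. A low count was common in the other ES samples. Zfp931, Gm14399 and Gm4631 had 0 peaks at 5% or less, and Gm14401 and Gm14420 had 1 each. Gm8898 had 1345 and Gm14419 had 3896. The median of Zfp931, on the same input, was 40.91%. Tags summed over the called peaks were 9672 for Gm14443 and 3063 for Gm14295. These are not library depths, which are unknown here, so a locus without a peak is not shown to be unbound. Since 1 library stands for each protein, differences between the proteins and differences between the libraries cannot be told apart.

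**Figure D1:**
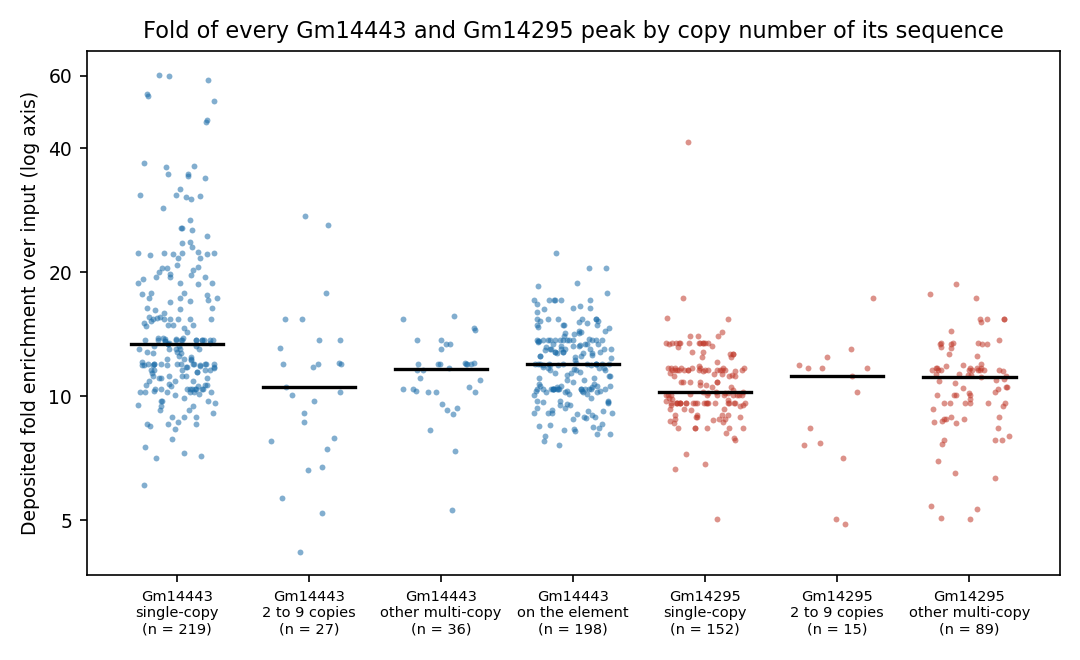
Deposited fold of each of the 736 peaks (log axis), split by how often the sequence under the peak occurs in the genome, with a black line at each median. Peaks with a fold over 20 are mostly Gm14443 peaks in single-copy sequence, and 1 Gm14295 peak at 41.51 stands above all other Gm14295 peaks.

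To describe where the peaks lie, each 200 bp peak window was given a copy number, the median number of times its 24-base words occur in the whole genome. In Gm14443, 219 of 480 peaks lay in single-copy sequence (45.6%, 95% Wilson interval 41.2% to 50.1%) and 234 in sequence of 10 copies or more (48.75%, 44.3% to 53.2%). In Gm14295, 152 of 256 peaks lay in single-copy sequence (59.4%, 53.3% to 65.2%) and 89 in sequence of 10 copies or more (34.8%, 29.2% to 40.8%). In 19680 windows taken at a fixed spacing of 130 kb along the chromosomes, 13.3% had 10 copies or more. Both proteins therefore had a larger share of peaks in multi-copy sequence than evenly spaced windows. The intervals cover counting error only, since peaks in near-identical copies can share reads that the mapping placed at random.

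Most multi-copy peaks of Gm14443 lay in 1 family of sequences. Aligned to each other over 1 kb around the summits, 196 of its 480 peaks joined in a single group by sequence likeness, and the next group held 5 peaks. One of them, whose surroundings aligned to those of 195 peaks, lay in an intergenic sequence of 7102 bp at chr6:124924088-124931189, bounded by direct repeats of 334 bp and 338 bp that were 98.8% identical. Direct long repeats at both ends of several kilobases are the known layout of an LTR retrotransposon, a mobile element with a retroviral structure. The element was not compared with a repeat annotation, and no family name is given here. On this element lay 198 Gm14443 peaks (41.25%, 95% Wilson interval 36.9% to 45.7%), spread over 20 chromosomes. Only 2 Gm14295 peaks did (0.781%).

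Gm14443 summits sat at 1 place on the element. Positions are counted along the plus strand of the chromosome 6 copy, and the direction in which the element is transcribed was not determined. The median summit was 1719 bp from its first base, with quartiles of 1687 bp and 1750.5 bp, although single summits lay as far out as 1423 bp and 6848 bp. Other ES proteins with many peaks on the same element sat elsewhere. Gm8898 had 1294 of its 1517 peaks there with a median at 1923 bp, Gm14419 had 1353 of 3906 with a median at 411 bp, and Gm14401 had 471 of 1541 with a median at 5834 bp. The quartile ranges of the 4 proteins did not overlap. Of the remaining ES proteins, Gm4631 had 40 peaks on the element, Gm14399 had 11, Gm14420 had 9 and Zfp931, which shared its input with Gm14443, had 2.

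**Figure D2:**
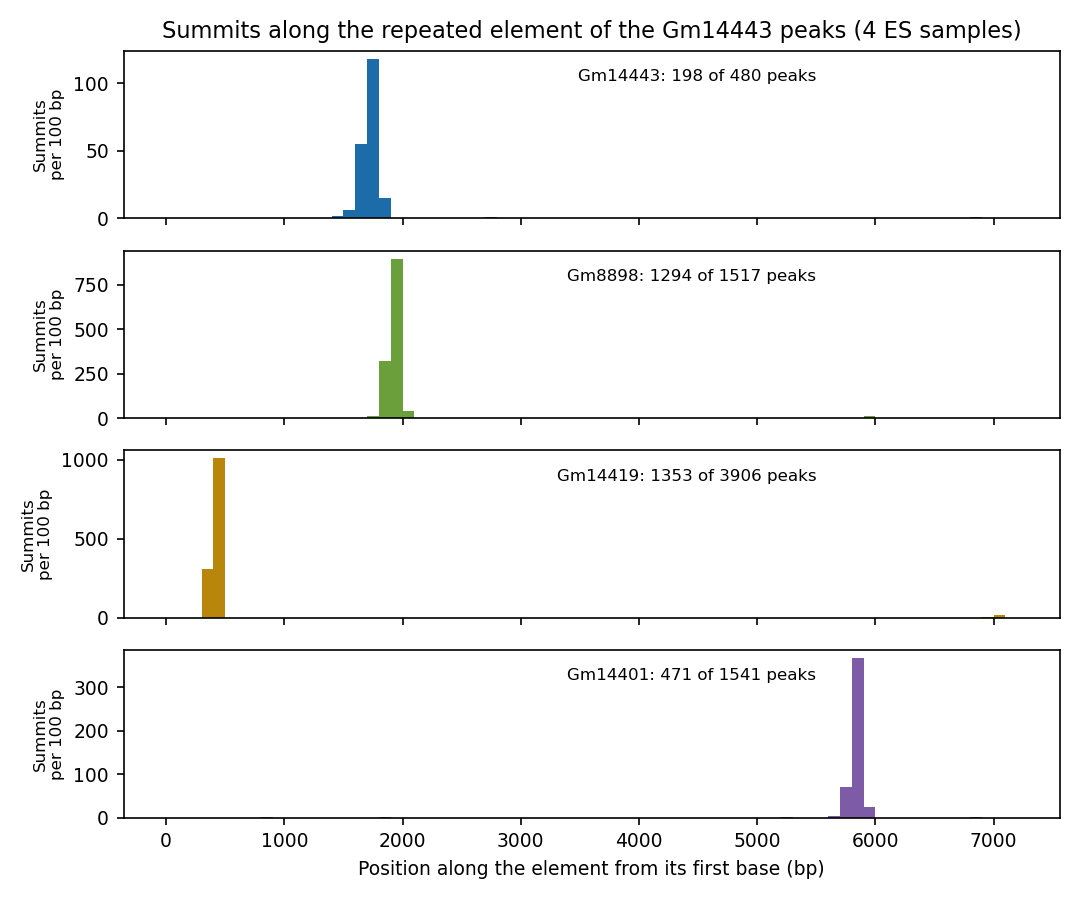
Number of peak summits per 100 bp along the 7102 bp element for the 4 ES samples with the most peaks on it. Each sample has its own place, with medians at 1719 bp for Gm14443, 1923 bp for Gm8898, 411 bp for Gm14419 and 5834 bp for Gm14401.

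The copies with a Gm14443 peak mostly also carried peaks of other proteins, as did most near-identical copies of the element. Of 198 such copies, 195 held a Gm14419 summit, at a median of -1290 bp from the Gm14443 summit in the order of these positions. A Gm8898 summit lay on 153 of them, 203 bp after the Gm14443 summit at the median, and a Gm14401 summit on 34, 4048 bp after it. Gm14420 had 1 summit on these copies, and Gm14295, Zfp931, Gm14399 and Gm4631 had 0. The shares were 98.5% for Gm14419, 77.3% for Gm8898 and 17.2% for Gm14401. Over all 725 copies of 97.5% identity or more around the median summit, the shares were 95.4%, 79.0% and 11.3%. For these 725 copies a summit was counted only within 300 bp of the median place of each protein, a narrower rule. Read by overlap of the windows instead, 34 of the 480 Gm14443 peaks shared at least 25% of the 200 bp window with a Gm8898 peak (7.08% of Gm14443 peaks and 2.24% of Gm8898 peaks).

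Peaks on the element were weaker than many single-copy peaks. Their median fold was 11.98 and their highest 22.32, against a median of 13.39 and a highest value of 60.42 for the 219 single-copy peaks. A score of 100 or more was reached by 13 of 198 peaks on the element (6.57%) and by 79 of 219 single-copy peaks (36.1%). The element peaks held 16 tags at the median and at most 28. Reads with several equally good positions were placed at 1 of them pseudo-randomly, which divides the reads of identical copies among them. The part of this in the lower folds was not tested.

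To ask what the Gm14443 peaks outside the element share, a 20-base motif was searched on both strands in the 100 bp around the summits of 118 single-copy peaks on odd-numbered chromosomes and X. The search gave NNNNNNGGCTNTGCATNATC, with N where no base reached 50%. The G at position 13 was the most constant letter. The motif was then counted in peaks the search had not used, at the score that 1% of the flanking windows of the searched peaks passed. It was found in 32 of 101 single-copy peaks on even-numbered chromosomes and Y (31.7%, 95% Wilson interval 23.4% to 41.3%) and in 5 of 202 windows lying 300 bp to each side of them (2.48%, 1.06% to 5.66%). In the multi-copy peaks it was found in 122 of 234 (52.1%, 45.8% to 58.5%) and in 1 of 468 flanking windows (0.214%). Of these multi-copy peaks 198 lay on the element, so they are mostly copies of 1 sequence. Neither the interval nor the contrast with the flanks therefore counts independent sites. With search and count in 200 bp windows the share was 74.8%. Of the 19680 spaced windows of the genome, cut to the same 100 bp, 143 held it (0.727%).

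The held-out peaks of higher fold held the motif in 20 of 50 and those of lower fold in 12 of 51 (40% and 23.5%), and the intervals of these shares overlapped. Of 89 single-copy peaks with a match, 73 had the middle of the site within 25 bp of the summit. The offset from the summit, counted with its sign, had a median of 3 bp and quartiles of -12 bp and 17 bp. Sites were sought only in the 100 bp around the summit, so all of them lie near it. Of the 89 peaks, 57 were among those the motif was derived from. In the other 8 ES samples, Gm14295 included, the motif was in 0% to 1.97% of single-copy peaks, the highest value being 3 of 152 peaks for Gm14295. In their multi-copy peaks it was in 1 of 1348 for Gm8898, in 0 of 2789 for Gm14419 and in 0 of 89 for Gm14295. The letters that the search fixed, and the counts, depended on the peaks it was given. Searched on the even-numbered chromosomes and Y instead, it returned NNATNATNCNNNNCCNNNNN. Read on the other strand and moved by 1 base, all its fixed letters match the first form, at positions 7, 8, 13, 15, 16, 18 and 19. At its own threshold it was in 27 of 118 held-out peaks (22.9%, 16.2% to 31.2%) and 7 of 236 flanks (2.97%). It was in 0 of 234 multi-copy peaks (a count of 0 allows up to 1.28%).

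**Figure D3:**
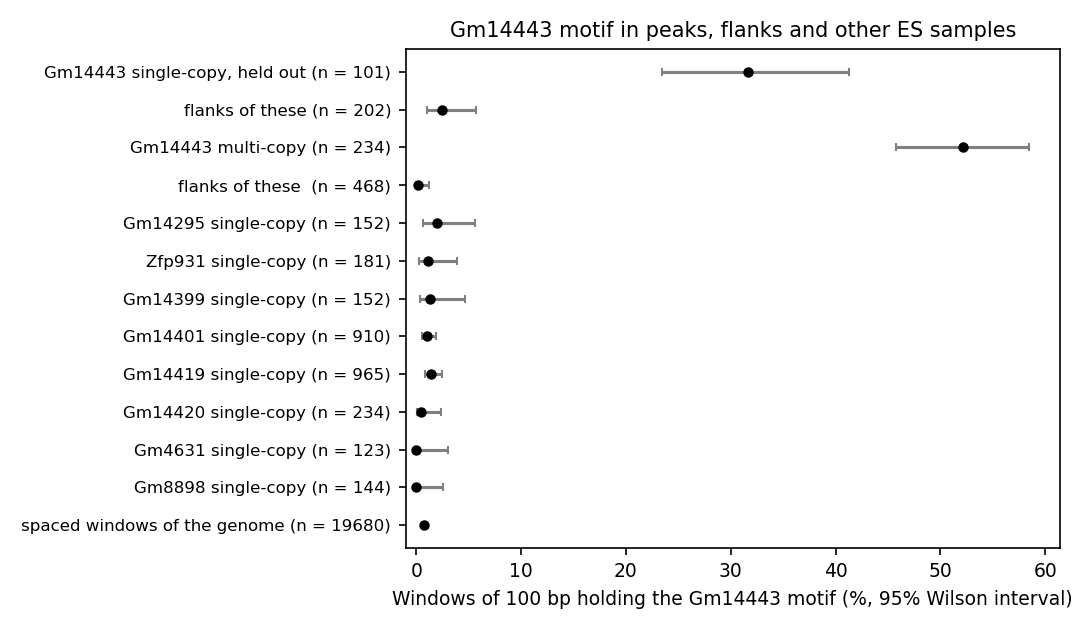
Share of 100 bp windows that hold the Gm14443 motif, with 95% Wilson intervals that cover counting error only. Held-out single-copy peaks (31.7%) and multi-copy peaks (52.1%) of Gm14443 lie apart from their flanks, from single-copy peaks of the 8 other ES samples and from spaced windows (0.727%). The multi-copy peaks are mostly copies of 1 element and not independent sites.

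The motif derived outside the element was then looked for in copies of the element. The 200 bases around the median summit were aligned to the whole genome, which gave 1970 copies of at least 75% identity, and 195 of these had a Gm14443 summit within 300 bp. In copies with a summit the best motif match fell most often on the same 20 bases, which covered the median summit. They started at -17 bp and read on the strand opposite to that along which positions are counted. The reference form printed above occupied these bases in 815 copies, of which 194 had a Gm14443 summit (23.8%, 95% Wilson interval 21.0% to 26.8%). In the 1155 copies with any other form, 1 had a summit (0.0866%). The reference form was taken from the copies with a summit, so its own share is a description.

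The copies with other forms held peaks of other proteins. The form with T16C and T17G was in 322 copies, of which 0 had a Gm14443 summit (a count of 0 allows up to 0.932%). Of these copies 152 had a Gm8898 summit (47.2%) and 100 a Gm14419 summit (31.1%). With C10T in addition the form was in 209 copies, with 0 Gm14443 summits (up to 1.44%), 80 Gm8898 summits (38.3%) and 31 Gm14419 summits (14.8%). The form with T16C, T17A, T19C and C20T was in 263 copies, of which 1 had a Gm14443 summit (0.38%), while 239 had a Gm8898 summit (90.9%) and 263 a Gm14419 summit (100%). In copies with the reference form the shares were 81.0% for Gm8898 and 96.8% for Gm14419. The shares of both were therefore also lower on the forms with T16C and T17G than on the reference form. Peaks of Gm8898 and Gm14419 were therefore called in copies where Gm14443 had none, in libraries of their own and against another input.

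**Figure D4:**
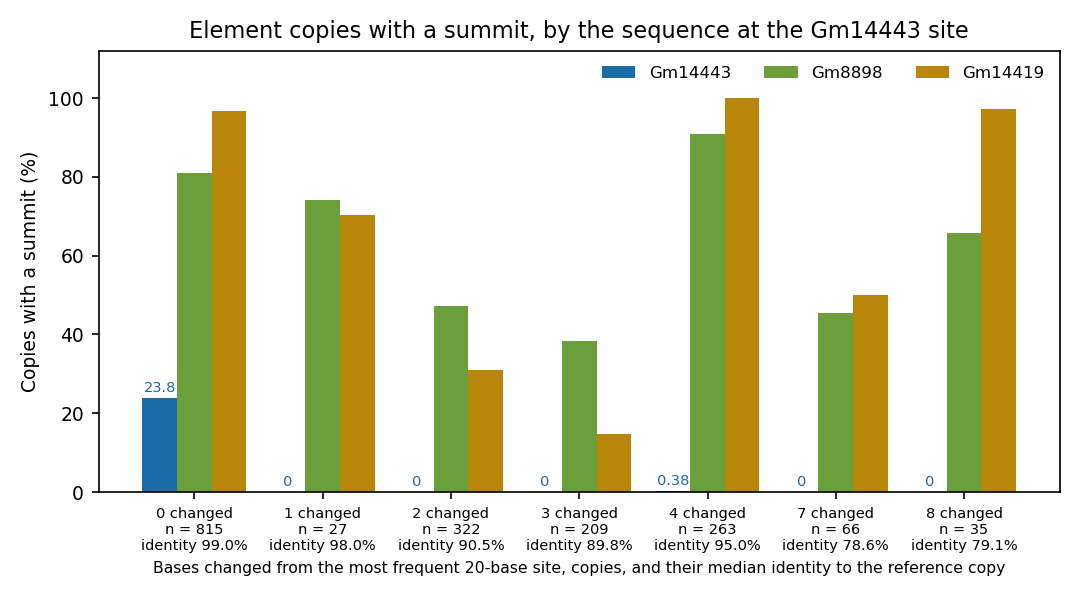
Percentage of element copies with a summit of Gm14443, Gm8898 and Gm14419, by the number of bases changed in the 20-base site from its reference form, for the 7 forms with the most copies; the number of copies and their median identity to the chromosome 6 copy stand under each group. Gm14443 summits are at 23.8% of copies with the reference form and at 0% to 0.38% of the others. The other 2 proteins have summits on every form shown, at 38.3% to 90.9% of copies for Gm8898 and 14.8% to 100% for Gm14419.

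Copies with other forms were also more distant from the chromosome 6 copy as a whole, so the site and the rest of the sequence changed together. The median identity over the 200 bases was 99% for the reference form, 90.5% for the form with T16C and T17G, 95% for the form with 4 substitutions and 98% for the form with C20T alone. Among the 725 copies with at most 2.5% of bases different, 187 of 694 with the reference form had a Gm14443 summit (26.9%), against 0 of 31 with any other form. Most of the latter had C20T alone, 26 copies with 0 Gm14443 summits (up to 11.5%), 19 Gm8898 summits and 18 Gm14419 summits. The form with C20T alone still passed the score threshold of the motif, at 12.26 against 11.41, so these copies do not lack the motif. The identity is measured to a copy that itself has a Gm14443 peak.

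Positions outside the 20 bases varied as well among copies with the reference form. Within 100 bp of the median summit, 18 bases other than the commonest one occurred in at least 20 copies. At 2 of these, 7 bp and 100 bp after the median summit, the 72 and 81 copies with the rarer base had 0 Gm14443 summits. In the 729 copies with neither, 194 had a summit (26.6%). At 4 bp and at 82 bp, 1 of 58 and 1 of 84 copies with a rarer base had a summit. The bases at 4 bp and 7 bp lie next to the 20-base site. The exact 20-base sequence occurred 813 times on the chromosomes that had Gm14443 peaks, 175 times within 100 bp of a Gm14443 summit, and 171 of the 480 peak windows held it (35.6%).

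The strongest Gm14443 peaks lay in single-copy sequence, as did all 10 of the highest fold. Their sequences were not compared with a repeat annotation, so whether they lie in repeats was not tested. The highest, with a fold of 60.42 and 155 tags, was intergenic at chr8:128650749-128650948, 131847 bp from the start of Kcnk1, a potassium channel gene. The next had a fold of 59.92 and 77 tags at chr7:20185027-20185226, in an exon of Gm17375. A peak with a fold of 58.5 and 102 tags lay in an intron of Runx3, which encodes a transcription factor of the Runt family, at chr4:134709777-134709976. The peak in an intron of Odc1, the gene of the rate-limiting enzyme of polyamine synthesis, had a fold of 54.17 and 93 tags at chr12:17554981-17555180. Jmjd5, a gene of the JmjC family, held an intronic peak with a fold of 52.08 and 96 tags at chr7:132588789-132588988. Of these 10 peaks, 6 held the motif, as did 89 of all 219 single-copy peaks (40.6%). The peaks with folds of 60.42, 59.92, 58.5 and 46.3 did not hold it. None of the 10 was called in another sample of the series, and neither were 435 of all 480 Gm14443 peaks (90.6%).

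The others among the 10 had folds of 53.66 at chr6:38634041-38634240, 46.88 at chr8:12490170-12490369, 46.3 in the UTR of H2afx at chr9:44143494-44143693, 36.92 in an intron of Chst11 and 36.3 in an intron of BC024479. H2afx encodes the histone H2A variant that is phosphorylated at DNA breaks, and Chst11 a chondroitin sulfotransferase. The folds of these 10 peaks, 36.3 to 60.42, all lay above the highest fold on the element, 22.32.

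Few peaks of either protein lay near transcript starts. Within 1 kb of a start lay 24 Gm14443 peaks (5.0%, 95% Wilson interval 3.38% to 7.33%) and 10 Gm14295 peaks (3.91%, 2.14% to 7.04%), and 4.15% of the sequenced bases of the genome lie that close. The peaks on the element contributed 0 of the 24. In single-copy sequence 21 of 219 Gm14443 peaks (9.59%) and 6 of 152 Gm14295 peaks (3.95%) were within 1 kb. Gm14443 summits were intergenic in 61.3% and intronic in 33.8%, and Gm14295 summits in 54.7% and 42.6%, against 58.8% and 37.7% of genome bases.

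Each peak was given its nearest protein-coding start, and for 21 Gm14443 peaks it lay within 1 kb. A second gene starting near the same summit was not counted. The 5 of highest fold were Runx3, Jmjd5, H2afx, Slc1a4, which encodes a neutral amino acid transporter, and Sfr1, which encodes a factor of homologous recombination. Their folds were 58.5, 52.08, 46.3, 34.72 and 31.92, and the summits lay 457, 691, 796, 450 and 909 bp downstream of the start. The next were Mcm7, a subunit of the replicative helicase, with a fold of 19.23, Zbtb38, a zinc finger protein that binds methylated DNA, with 17.82, Ick, a protein kinase, with 15.9, Gm1568 with 14.79, and Cdkn2c, an inhibitor of cyclin-dependent kinases, with 13.85. The Zbtb38 peak was the only 1 of these 21 called in another sample, that of Gm13152 in F9 embryonal carcinoma cells. Over all Gm14443 peaks, 90.6% were called in no other sample. The 21 folds ranged down to 4.2, so the group holds strong and weak peaks alike.

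Gm14295 had 7 such peaks, with lower folds. Ska1, a gene of the spindle and kinetochore, had a fold of 14.33 with 24 tags, and Gm14419 had a peak at the same locus. Caml had a fold of 11.41, Abhd12b 11.31, Ttc29 9.88, Zfp760 9.03, Depdc5 8.89 and 4930529F22Rik 7.08. All 7 folds lay below the 10 highest of Gm14295, and the deposited false discovery rates were 10.19% to 50%.

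The strongest Gm14295 peak stood alone. It had a fold of 41.51, 43 tags and a score of 370.23, and the next fold was 18.77. Its false discovery rate was nevertheless 100%, which by the definition above means that the input called against the ChIP gave as many peaks of that score. It lay at -67009 bp from the nearest start, of Gm1631, and no other sample had a peak within its window. The surroundings were crowded: 11 other KRAB-ZFPs had a summit within 10 kb, the nearest being Gm14420 at 769 bp, and 8 from F9 cells lay between 2335 and 2386 bp away. Over all Gm14295 peaks the median number of such proteins was 0, the next highest was 6, and 168 of the 256 peaks had none. For Gm14443 the median was 1 and the highest 6.

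The other Gm14295 peaks showed little that they had in common. Groups by sequence likeness held 15, 12, 5, 4 and 4 peaks, and 44 of 256 peaks were in any group (17.2%), as against 214 of 480 for Gm14443 (44.6%). The 1 kb sequence that aligned to most Gm14295 peaks, in an intron of Fam5b at chr1:160261388-160262387, accounted for 12 peaks (4.69%), while Gm14419 had 217 peaks on it (5.56% of its own). The motif search in 68 single-copy Gm14295 peaks gave a form found in 5 of them, in 0 of 84 held-out peaks (up to 3.57%) and in 3 of 168 flanking windows (1.79%). Of the 10 Gm14295 peaks of highest fold, 3 were in single-copy sequence and 6 in sequence of 10 copies or more. Besides the strongest peak these included intronic peaks in Slc38a1, a glutamine transporter gene, with a fold of 18.77 and 10 tags, and in Kcnj6, a potassium channel gene, with a fold of 15.53 and 11 tags. The peak with the most tags, 194, had a fold of 5.04 at chr4:118220230-118220429 and was shared with Gm14419 and Gm4631.

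Gm14443 and Gm14295 shared 3 loci at an overlap of at least 25% of the 200 bp window, which is 0.625% of Gm14443 peaks and 1.17% of Gm14295 peaks. The locus at chr1:41974754-41974953 was intergenic and also called for Zfp931, with folds of 15.7 for Gm14443 and 13.1 for Gm14295. The locus at chr19:12577634-12577833, at -1248 bp from the start of Dtx4, a gene of the Deltex family of Notch regulators, was also called for Gm14419, with folds of 13.7 and 11.57. The third, at chr16:90985764-90985963 in an intron of Synj1, which encodes a phosphoinositide phosphatase of synaptic vesicle recycling, had folds of 12.08 and 11.73 and was in no further sample. The first and second lay in sequence of over 1000 copies and the third in sequence of 4 copies. Most peaks of each protein were in no other sample of the series, 435 of 480 for Gm14443 (90.6%) and 237 of 256 for Gm14295 (92.6%). For Gm14443 this depended on the overlap required: 38 peaks were at loci called in another ES sample at 25% of the window (7.92%), 80 at 1 bp (16.7%) and 14 at 50% (2.92%). For Gm14295 the count was 16 at each (6.25%). At 25% of the window the share was 32.9% for Gm14399, 31.5% for Gm4631, 5.04% for Gm14419 and 2.90% for Gm8898. It was 1.45% for Zfp931, 1.31% for Gm14420 and 0.91% for Gm14401. Having few peaks at shared loci was therefore not particular to the pair.

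Few genes of any kind had a summit near their start, and the gene lists were too short to tell from this background. Of 22194 protein-coding genes, 0.667% had a Gm14443 summit within 10 kb of a start and 0.32% a Gm14295 summit. Of 26 annotated genes of KAP1-dependent silencing, among them Trim28, which encodes KAP1, and Setdb1, 0 had a summit of either protein within that distance. The same count was found for 22 pluripotency genes, such as Pou5f1 and Nanog, and for 47 annotated genes with zinc finger or Gm names in the chromosome 2 cluster. Neither protein had a peak within 50 kb of its own gene.

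The pair was set beside the 7 other ES samples in 6 measures, each with 1 value per sample. The test was an exact two-sided permutation test over all 36 splits of 9 samples into 2 and 7, whose smallest possible p is 0.0278, and a single measure could not go below 0.167 after adjustment over the 6. It averages a pair of different proteins, which are not replicates of a condition, so a p above the threshold does not show that they are like the others. The pair had a mean log10 peak number of 2.54 against 2.88 (exact permutation p = 0.361). For the mean log10 median fold the values were 1.05 and 1.07 (exact p = 0.917), and for log10 median width 2.51 and 2.59 (exact p = 0.417). The multi-copy share was 41.8% against 52.1% (exact p = 0.611), and the share within 1 kb of a start 4.45% against 6.76% (exact p = 0.5). The share of peaks at loci called in another ES sample was 7.08% against 10.9% (exact p = 1). Of the others only Gm14399 (32.9%) and Gm4631 (31.5%) lay above the pair (7.92% and 6.25%), and the next was Gm14419 (5.04%). After Benjamini-Hochberg adjustment over the 6 measures the smallest p was 0.917.

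Gm14443 had the fourth most peaks of the 9 samples, the second highest median fold and the third highest median number of tags. Gm14295 had the fewest peaks, the narrowest peaks and the lowest median tags. Zfp931, the only other sample on the TI_443 input, had 346 peaks, a median fold of 10.24 and 35.8% multi-copy peaks. Gm14295 was close to it in median fold, 10.67, and in multi-copy share, 34.8%, and had fewer peaks, 256. In other measures they lay apart. A score of 100 or more was reached by 40 Zfp931 peaks and 3 Gm14295 peaks. Within 1 kb of a start lay 10.4% of Zfp931 peaks and 3.91% of Gm14295 peaks. With 3 samples on this input the difference could not be tested within it.

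**Figure D5:**
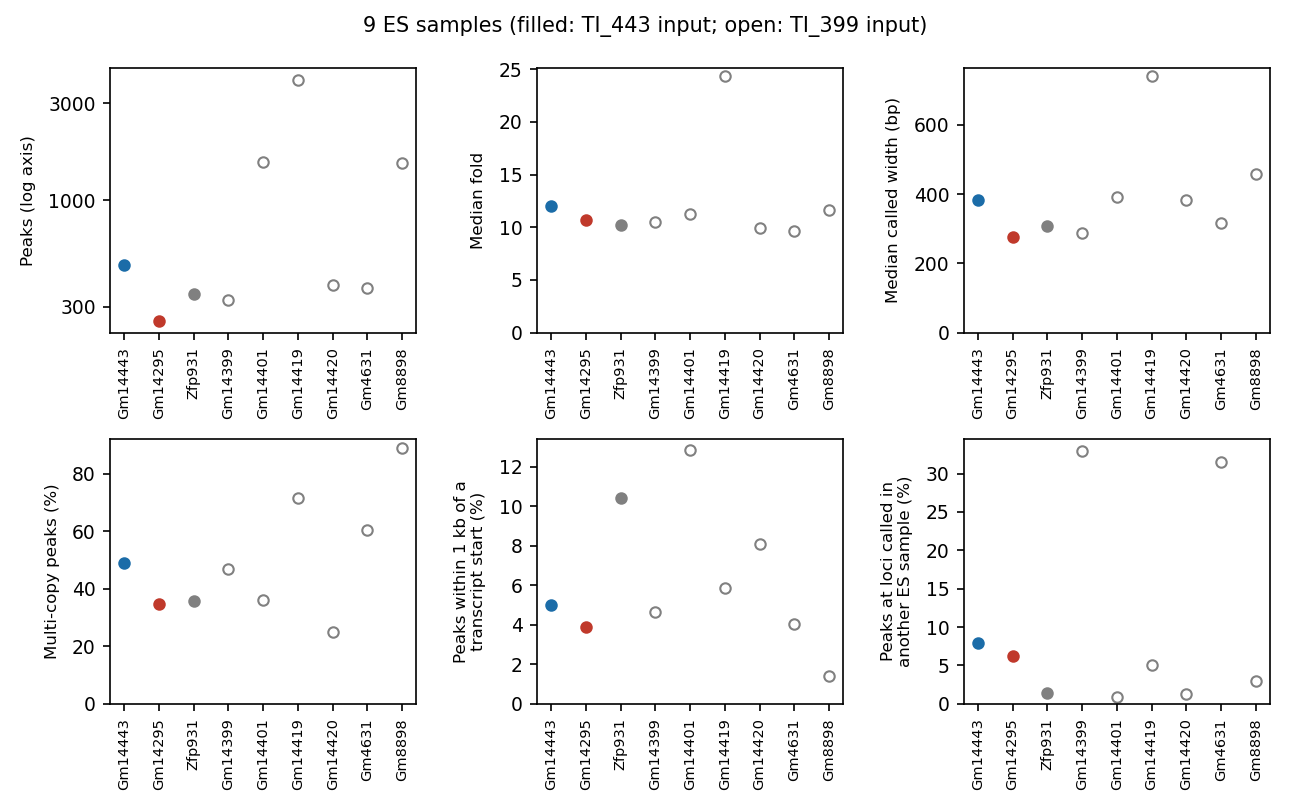
Each of the 6 measures in the 9 ES samples, 1 point per sample, with filled points for the TI_443 input and open points for TI_399. Gm14443 (blue) and Gm14295 (red) lie within the range of the others in 4 panels, and Gm14295 lies lowest in peak number (256) and called width (277 bp).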

How the data were processed

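ChIP-seq peaks of overexpressed, tagged KRAB-ZFPs in mouse cells were analysed from 1 deposited table. Per the labels and the study's methods, reads of the ES samples were aligned to mm9 with Bowtie (--best), which places a read with equally good positions at 1 of them pseudo-randomly, and peaks were called per sample with MACS 1.4.2 at p below 1e-05 without an enrichment threshold and against input alone; they were then set to 200 bp around the summit. The authors deposited for each peak the tags as a raw count, a score (10 times the negative log10 of the p-value), the fold enrichment as a ratio and the false discovery rate as a percent; these values were used as they stand. The 244 peaks under 1 further name, which the labels do not hold, were not used.

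The NCBIM37 assembly (mm9) and gencode vM1 were used, and coordinates count from 1. Copy number was counted from exact 24-base words. Elements were aligned with blastn 2.17.0 at 85% identity over 200 bp or more; the motif search was an expectation-maximisation over both strands. Scripts ran in Python 3.11.15 with numpy 2.4.6 and scipy 1.17.1 and were tested on simulated data. Intervals are 95% Wilson intervals, and intervals and limits for a count of 0 (3 counts) cover counting error only. Library depth is unknown here. The samples were grouped by protein from the labels, and the pair was compared with the other ES samples by exact permutation tests.

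Named genes are those at the 10 peaks of highest fold per protein, up to 10 protein-coding genes within 1 kb of a summit by fold, and those at shared loci; the peak with the most tags was named after its values were seen. The members, lists and tests were chosen with earlier results of these data known. Alternatives were stricter peak filters, other copy number, distance, overlap, identity and motif settings, and leaving out each sample. The split of element copies by site, the motif in other samples the proteins within 10 kb and the share of all genes near a summit were added after seeing the data. Zinc fingers of the proteins were not analysed here.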

Additional observations from a re-analysis of the deposited data

Results flagged for a closer look

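In 1 of 6 measures over the 9 ES samples, 1 sample lay far from the rest: the log10 median fold of Gm14419 was 1.39, a median fold of 24.4, and its gap to the next sample was 0.761 of the whole range, above Dixon's critical value of 0.493. Chance flags about 1 in 20 groups. Gm14419 is one of the samples with which the pair was compared, and without it the difference in log10 median fold between the pair and the others was 0.0325 in place of -0.0197.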

How the results depend on the processing

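Of 99 alternatives, 82 kept direction and side of the threshold, or stayed within the interval. For the 6 comparisons the side of the threshold was nearly fixed beforehand. With 36 splits a single measure could not go below an adjusted 0.167, so keeping that side shows little. No adjusted p of the 6 comparisons fell under 0.556 in any alternative. The share within 1 kb of a start turned to 10.5 percentage points higher in the pair at a score of 100 or more, where Gm14295 had 3 peaks, and to 0.0040 points higher within 5 kb. The same score minimum moved the multi-copy difference from -10.3 to -56.9 points and that in log10 peak number from -0.335 to -0.887. Leaving out each sample gave -0.472 to -0.199 for log10 peak number, -0.0456 to 0.0325 for log10 median fold, -0.150 to -0.0109 for log10 width, -17.3 to -3.31 points for the multi-copy share, -3.20 to -1.29 for the share within 1 kb and -8.73 to 1.20 for loci called in another ES sample. The fold turned to 0.0061 without Gm14295 and 0.0325 without Gm14419, and the shared-locus difference to 0.683 without Gm14399, 1.20 without Gm14419 and 0.116 without Gm4631. At a score of 100 or more the pair shared 0 loci and the element held 13.7% of Gm14443 peaks, and the leading repeated sequence of Gm14295 held 0% of its peaks. At 95% identity the element held 36.04% of Gm14443 peaks. The Gm14443 motif was in 74.8% of multi-copy peaks with 200 bp windows, and, searched on even chromosomes, in 22.9% of held-out and 0% of multi-copy peaks; for Gm14295 that search gave 7.35% and 5.62%, and 200 bp windows 5.62% of multi-copy peaks. The cause was not tested. A false discovery rate of 5% or less left no Gm14295 peaks and gave no value. No paired analysis was possible because each protein had 1 sample. Library depth is unknown here.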
